A study of Mus musculus with 4 samples.

Results

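The Nkx2 homeobox genes are described here through the occupancy of their promoters by Ring1B, the ubiquitin ligase subunit of Polycomb repressive complex 1 (PRC1), in mouse embryonic fibroblasts. Members were all genes whose probes carry an Nkx2 name, or Titf1, the older name of Nkx2-1, in the scanner files. This gave 7 genes with 287 probes, of 17649 promoters and 462748 gene-named probes in all. The genes are Nkx2-1, Nkx2-2, Nkx2-3, Nkx2-4, Nkx2-5, Nkx2-6 and Nkx2-9. Chromatin was immunoprecipitated with a Ring1B antibody, amplified by a T7 RNA polymerase step and hybridised in Cy5 against input DNA in Cy3 on promoter arrays (ChIP-on-chip). One group of fibroblasts was homozygous for Phc2 L307R (genotype Phc2 L307R/L307R) and the other was wild type. Both groups were of the strain C57BL/6, came from embryos of day 12.5 and were used at passage 2. Phc2, one of the Polyhomeotic subunits of PRC1, carries a SAM domain through which it polymerises. The study's title ties this polymerisation to PRC1 clusters and silencing, and the comparison addresses how much Ring1B promoters hold when Phc2 is altered.

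The promoters were split over 2 array designs with 0 probes in common, and each design was hybridised once per genotype, which gives 4 arrays. Each Nkx2 promoter was therefore measured on 1 Phc2 L307R array and 1 wild-type array, the spread between cultures is unknown, and no p-value is given. Differences are read by a fixed rule of size, and the error printed for a window is the SD of its 3 probes. The number of arrays limits the precision. Phc2 L307R and wild-type arrays were scanned on different days, and scan day and genotype cannot be told apart. The genotype rests on the labels. These arrays measure occupancy and not expression, so the fibroblast identity of the cells could not be checked from marker expression.

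Nkx2 proteins are homeodomain transcription factors of the NK2 class, which set organ and cell identities in the embryo. Nkx2-5 is a core factor of heart development, Nkx2-3 acts in spleen and gut mesenchyme, Nkx2-1 in thyroid, lung and ventral forebrain, and Nkx2-2 in the ventral neural tube and the pancreatic islet. Nkx2-6 is known from the pharyngeal pouches and the outflow region of the heart, and Nkx2-4 and Nkx2-9 from the ventral nervous system. Genes of this kind are classical Polycomb targets in cells that do not use them, where PRC1 with Ring1B sits over broad regions rich in CG dinucleotides around their start sites.

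Promoter sequences of 6 of the 7 genes were found in the RefSeq table of build GRCm38.p6, which gives 250 bases before to 50 after each gene start; none is shown for Nkx2-6. The 4 shown are those of the gene with the highest Ring1B level (Nkx2-3), the gene that fell in Phc2 L307R by the size rule (Nkx2-5), the gene with the most CG dinucleotides (Nkx2-4) and the gene with the lowest Ring1B level (Nkx2-9). Each is written 5′ to 3′ on the strand of the gene, and the capitals mark CG dinucleotides, which read the same on both strands.
Nkx2-3, chr19:43612075-43612374, plus strand: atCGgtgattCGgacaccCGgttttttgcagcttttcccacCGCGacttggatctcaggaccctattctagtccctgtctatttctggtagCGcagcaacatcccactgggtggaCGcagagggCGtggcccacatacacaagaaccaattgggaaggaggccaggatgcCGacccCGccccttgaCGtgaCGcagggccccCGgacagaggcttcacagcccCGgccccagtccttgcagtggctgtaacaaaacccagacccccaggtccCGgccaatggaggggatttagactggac
Nkx2-5, chr17:26841516-26841815, minus strand: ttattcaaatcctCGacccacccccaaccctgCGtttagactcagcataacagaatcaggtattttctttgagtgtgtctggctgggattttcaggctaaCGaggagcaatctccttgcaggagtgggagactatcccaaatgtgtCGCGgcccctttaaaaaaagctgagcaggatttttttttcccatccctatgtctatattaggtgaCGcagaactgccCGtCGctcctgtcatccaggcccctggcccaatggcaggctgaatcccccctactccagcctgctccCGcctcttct
Nkx2-4, chr2:147085296-147085595, minus strand: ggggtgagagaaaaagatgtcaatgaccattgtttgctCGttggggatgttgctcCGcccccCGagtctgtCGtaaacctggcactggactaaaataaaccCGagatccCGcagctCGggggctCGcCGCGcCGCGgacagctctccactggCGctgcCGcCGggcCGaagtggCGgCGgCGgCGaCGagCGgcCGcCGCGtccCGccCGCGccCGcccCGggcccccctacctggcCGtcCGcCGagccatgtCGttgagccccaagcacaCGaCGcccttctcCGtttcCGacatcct
Nkx2-9, chr12:56613235-56613534, minus strand: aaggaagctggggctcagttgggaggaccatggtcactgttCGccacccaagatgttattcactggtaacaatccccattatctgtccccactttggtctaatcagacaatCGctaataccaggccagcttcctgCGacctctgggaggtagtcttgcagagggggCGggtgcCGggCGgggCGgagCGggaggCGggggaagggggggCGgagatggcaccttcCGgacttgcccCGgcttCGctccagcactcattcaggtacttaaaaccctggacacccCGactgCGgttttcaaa
The Nkx2-4 promoter held 38 CG dinucleotides at a GC content of 68.3%, and 4.95% of the 32851 promoters in the table held as many. Nkx2-2 held 17, Nkx2-3 and Nkx2-9 held 15 each, Nkx2-1 held 12 and Nkx2-5 held 9. The median promoter of the table held 7, and 94.6% held at least 1. The count did not follow the Ring1B level, since the genes with the highest and the lowest level both had 15. For the probe positions no build is given in the sources used here, so these 300 bases could not be placed among the probes, and positions of probes are given only as the files have them.

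Immunoprecipitate signal was well above background at 99.1% of probes on both Phc2 L307R arrays, against 97.9% and 99.7% on the wild-type arrays. For input signal these shares were 75.0% and 76.3% in Phc2 L307R, against 85.7% and 86.7% in wild type, so more probes had a dim denominator in Phc2 L307R. The deposited value tables hold a second set of wild-type values, and where these came from is unknown. Their correlation with the ratios of the wild-type scanner files was 0.854 and 0.890 over the probes of the 2 designs. The Phc2 L307R tables matched their scanner files, apart from a constant, at 99.9% of probes, within 0.001 (log10) plus 0.51% of the value. Values below come from the scanner files, as log2 of immunoprecipitate over input centred on the array median, in the 3-probe window with the highest mean over both genotypes.

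All 7 Nkx2 promoters carried Ring1B above the cut-off of 1 (log2) in Phc2 L307R and in wild type, a level that 39.3% of all promoters reached in Phc2 L307R and 45.5% in wild type. At a stricter level of 3, 4 of the 7 remained in Phc2 L307R and 5 in wild type, against 1.44% of all promoters in Phc2 L307R and 1.58% in wild type. Their levels spanned a wide range, with medians of 3.49 in Phc2 L307R and 4.46 in wild type. In Phc2 L307R the order ran from Nkx2-3 at 6.00 through Nkx2-4 at 4.60, Nkx2-6 at 3.89, Nkx2-5 at 3.49, Nkx2-2 at 2.92 and Nkx2-1 at 2.74 to Nkx2-9 at 1.77. In wild type it ran from Nkx2-3 at 6.09 through Nkx2-5 at 4.96, Nkx2-4 at 4.68, Nkx2-6 at 4.46, Nkx2-2 at 3.64 and Nkx2-1 at 2.44 to Nkx2-9 at 1.72. The place of Nkx2-5 among Nkx2-4 and Nkx2-6 depended on the values used. It stood below both in Phc2 L307R and above both in wild type here, but with bright probes only (those well above background in both channels on both arrays) it stood at 3.59 in Phc2 L307R, above Nkx2-6 at 3.18, and in the wild-type value tables it stood at 5.67, below Nkx2-4 at 5.73 and Nkx2-6 at 5.74. In Phc2 L307R, Nkx2-6 and Nkx2-5, and Nkx2-2 and Nkx2-1, lay no farther apart than the larger SD over their probes. In wild type the same held for each neighbouring pair from Nkx2-5 down to Nkx2-1. These levels belong to different probes, whose hybridisation may differ, so the order is a description.

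**Figure D1:**
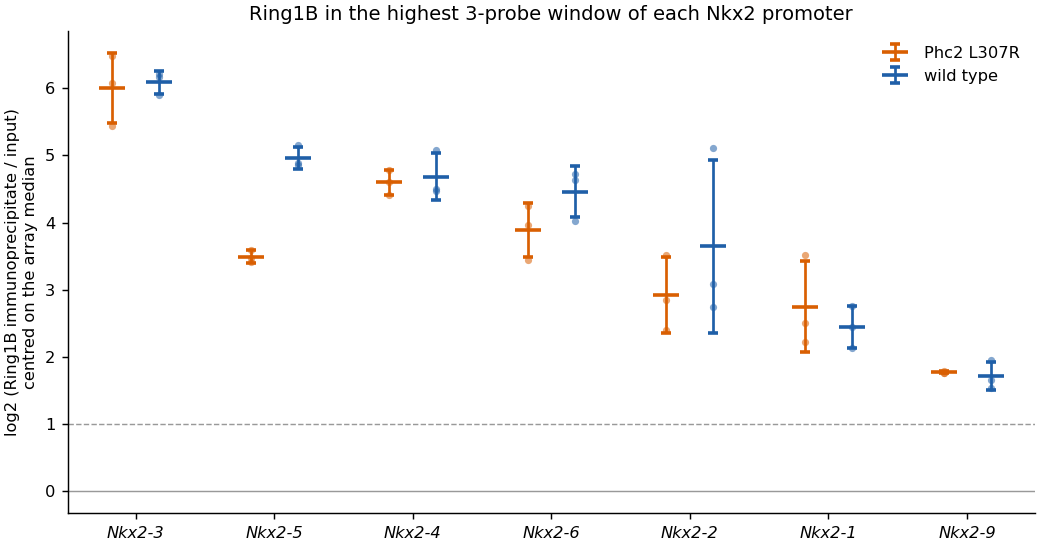
Ring1B level (log2 immunoprecipitate over input, centred on the array median) in the 3-probe window of each Nkx2 promoter, with Phc2 L307R in orange left of wild type in blue; points are the 3 probes, bars their mean and SD, and the dashed line the cut-off of 1. The groups of points are clear of each other at Nkx2-5 (3.49 in Phc2 L307R, 4.96 in wild type) and lie over each other at Nkx2-3 (6.00 and 6.09).

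Nkx2-5, the cardiac factor, was the only member that changed by the size rule, which asks for a window difference of at least 1 with all 3 probes on the same side. Its window lies on chromosome 17 from 26571458 to 26571928 in the coordinates of the files. This was also the highest window of the wild-type profile, but not of the Phc2 L307R profile, at whose peak the difference was -0.46. The 3 probes read 3.48, 3.41 and 3.60 in Phc2 L307R, against 5.15, 4.88 and 4.86 in wild type. Every Phc2 L307R probe was below every wild-type probe. The means were 3.49 in Phc2 L307R (SD 0.10) and 4.96 in wild type (SD 0.17), a difference of -1.47 (SD 0.21), so the enrichment in Phc2 L307R was 0.361 times that in wild type.

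The difference at Nkx2-5 lay in the immunoprecipitate channel. The processed immunoprecipitate signals of the 3 probes were 11678, 14442 and 18644 in Phc2 L307R, against 40915, 39401 and 42858 in wild type. The input signals were 1102, 1433 and 1620 in Phc2 L307R, against 1239, 1442 and 1597 in wild type, and all were well above background. Signals are in arbitrary units after the dye normalisation of the scanner software. By level, Nkx2-5 ranked 146 of all promoters in Phc2 L307R and 51 in wild type. By difference, it ranked 42 from the lowest of 8998 promoters at or above 1 in either genotype, and 21 from the lowest of the 341 at or above 3.

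The lower Ring1B at Nkx2-5 extended along the probed region, which spans 26566805 to 26574646 with 45 probes. Over all 45 probes the level was 2.59 ± 1.00 in Phc2 L307R and 3.48 ± 1.02 in wild type (SD over probes), and the difference averaged -0.90 (SD 0.49). Of the 45 probes, 44 were lower in Phc2 L307R, and 19 of these were at least 2-fold lower. Among the 32 probes well above background in both channels on both arrays, 32 were lower, 18 at least 2-fold, with a mean of -1.04. In 3 sections of equal length, the mean difference was -0.69, -1.14 and -0.82 in order of coordinates. The single probe that was not lower was dim on at least 1 array, as the plot of probe differences shows.

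Fewer Nkx2-5 probes stood at a high level in Phc2 L307R. Probes at or above 3 numbered 19 in Phc2 L307R and 32 in wild type. The longest unbroken run of them held 10 probes over 1298 bp in Phc2 L307R and 13 probes over 2170 bp in wild type. The wild-type run ended at a probe that was low in both genotypes (0.13 in Phc2 L307R, 0.40 in wild type), and beyond it wild type stood at or above 3 along the whole Phc2 L307R run as well. The highest window of the Phc2 L307R profile lay 2332 bp from that of the wild-type profile. At that place the level was 3.69 in Phc2 L307R and 4.15 in wild type, a difference of -0.46 (SD 0.22) that did not pass the size rule. Each of the 3 probes there had input not well above background on at least 1 array, and in Phc2 L307R the window at 3.69 stood close to the 3.49 of the window read above.

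For comparison, 121 promoters had at least 30 probes and a mean over all of them of at least 2. Their median share of probes lower in Phc2 L307R was 75.6%, while Nkx2-5 had 97.8%. Nkx2-5 included, 2 of the 121 had a share as high and 6 had a mean difference as low.

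**Figure D2:**
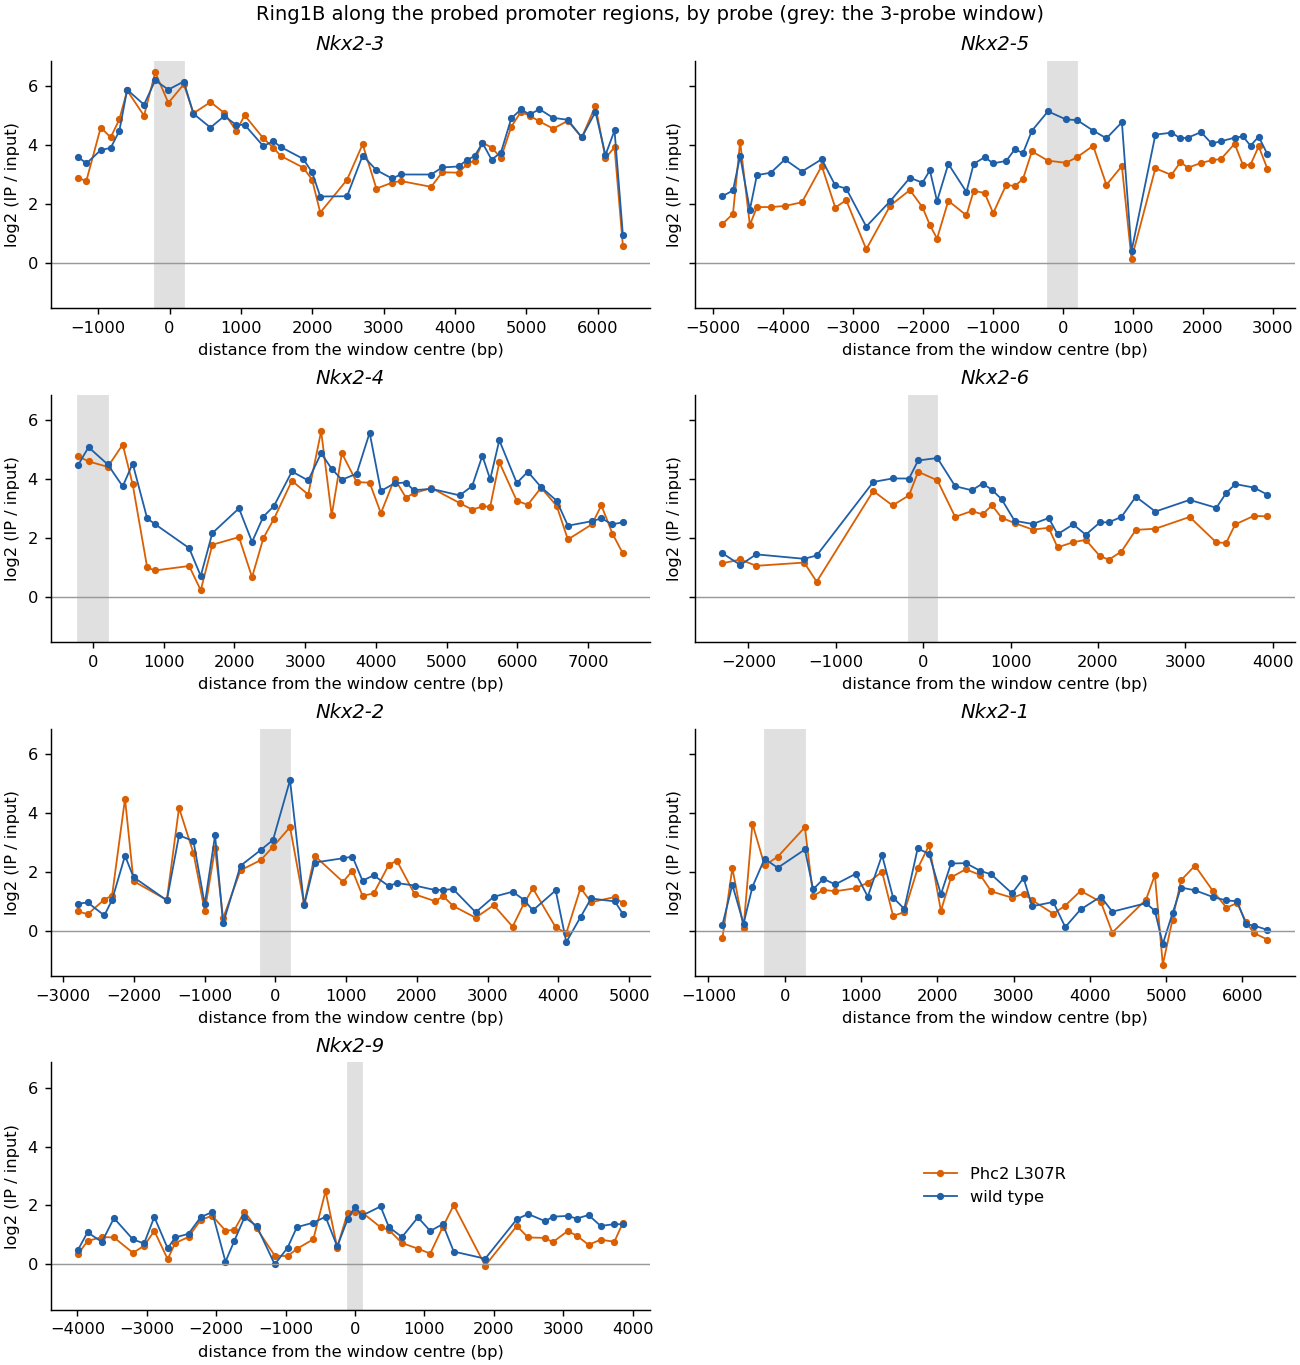
Ring1B level (log2 immunoprecipitate over input) of each probe along the probed region of the 7 Nkx2 genes against the distance from the window centre (bp), with Phc2 L307R in orange, wild type in blue and the 3-probe window in grey. The lines overlap along Nkx2-3, where 0 of 45 probes differed 2-fold, and the Phc2 L307R line runs below the wild-type line along Nkx2-5, where 44 of 45 probes were lower.

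Nkx2-3, the spleen and gut factor, had the highest Ring1B window of any promoter in wild type and ranked 3 in Phc2 L307R. Its window lies on chromosome 19 from 43661404 to 43661863. The 3 probes read 6.48, 5.44 and 6.08 in Phc2 L307R, against 6.21, 5.89 and 6.17 in wild type, and the genotypes overlapped. The means were 6.00 in Phc2 L307R (SD 0.52) and 6.09 in wild type (SD 0.17), and the difference of -0.09 (SD 0.36) was smaller than its SD. At the probe that read 6.48 the Phc2 L307R input was not well above background. With only probes well above background on both arrays, the window was 5.60 in Phc2 L307R and 5.86 in wild type, a difference of -0.26 (SD 0.19).

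The genotypes stayed close along the whole Nkx2-3 region, 43660328 to 43668008. Of its 46 probes, 1 carried an outlier flag and was left out. The other 45 averaged 4.04 ± 1.20 in Phc2 L307R and 4.12 ± 1.10 in wild type, with a mean difference of -0.08 (SD 0.36). The sign leaned one way, with 31 of 45 probes lower in Phc2 L307R, but 0 reached a 2-fold difference. Probes at or above 3 numbered 35 in Phc2 L307R and 41 in wild type, and the longest run of them held 17 probes over 2888 bp in Phc2 L307R and 20 probes over 3325 bp in wild type. Both genotypes had their highest window at the same place. Among 6677 promoters with at least 30 probes, the mean over the region ranked 1 in Phc2 L307R and 2 in wild type, so Ring1B at Nkx2-3 was both high and broad.

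Nkx2-4, on chromosome 2 from 146774423 to 146782182 with 40 probes, showed little difference in its window and more over its region. The window, 146774423 to 146774904, lies at the edge of the probed region. Its probes read 4.78, 4.60 and 4.42 in Phc2 L307R, against 4.46, 5.09 and 4.50 in wild type, giving 4.60 (SD 0.18) and 4.68 (SD 0.35) with a difference of -0.08 (SD 0.40). The probe that read 4.60 in Phc2 L307R and 5.09 in wild type had input not well above background on either array. Over all 40 probes the level was 3.05 ± 1.29 in Phc2 L307R and 3.54 ± 1.06 in wild type, and 33 probes were lower in Phc2 L307R, 8 of them at least 2-fold. The mean difference was -0.49 with an SD of 0.70, and -0.66 over the 27 probes well above background. Probes at or above 3 numbered 24 in Phc2 L307R and 28 in wild type. The longest run of them held 7 probes over 1107 bp in Phc2 L307R and 22 probes over 4051 bp in wild type. The run lengths exaggerate the difference in breadth. Along the wild-type run, the Phc2 L307R probes below 3 stood just under it, at 2.65, 2.77, 2.84 and 2.96. The highest wild-type window lay 5567 bp from the highest Phc2 L307R window. There the level was 3.57 in Phc2 L307R and 4.70 in wild type, a difference of -1.13 (SD 0.52), with 1 of the 3 probes dim in input on both arrays.

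Nkx2-6, on chromosome 14 from 68121467 to 68127758 with 32 probes, was lower at nearly every probe but by less than the size rule asks. The window, 68123601 to 68123984, read 3.45, 4.25 and 3.96 in Phc2 L307R, against 4.02, 4.63 and 4.72 in wild type. The means were 3.89 (SD 0.41) in Phc2 L307R and 4.46 (SD 0.38) in wild type, and the difference of -0.57 had an SD of 0.19. In 2 of the 3 window probes the Phc2 L307R input was not well above background. Over all 32 probes the level was 2.29 ± 0.89 in Phc2 L307R and 2.98 ± 0.98 in wild type, 31 probes were lower in Phc2 L307R and 9 were at least 2-fold lower. The mean difference was -0.69 (SD 0.43) over all probes and -0.78 over the 26 probes well above background. Probes at or above 3 numbered 6 in Phc2 L307R and 17 in wild type.

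The remaining members had lower levels, and none had a window difference in the scanner files beyond the SD over its 3 probes. With bright probes only, the window differences were -0.20 (SD 0.09) at Nkx2-2, -0.22 (SD 0.17) at Nkx2-1 and -0.27 (SD 0.34) at Nkx2-9. The first 2 exceeded their SD. Over all probes, 24 of 39 were lower in Phc2 L307R at Nkx2-2, 27 of 42 at Nkx2-1 and 33 of 43 at Nkx2-9. Nkx2-2, which shares chromosome 2 with Nkx2-4 at a gap of 93354 bp, read 2.92 (SD 0.56) in Phc2 L307R and 3.64 (SD 1.28) in wild type, a difference of -0.72 (SD 0.76). That difference came mostly from 1 probe, at 3.52 in Phc2 L307R and 5.11 in wild type, whose input was not well above background on either array. Over its 39 probes the mean difference was -0.08 (SD 0.66). Nkx2-1, named Titf1 in the files, lies on chromosome 12 and read 2.74 (SD 0.68) in Phc2 L307R and 2.44 (SD 0.31) in wild type, a difference of 0.30 (SD 0.50). Its most positive window probe, at 3.51 in Phc2 L307R and 2.76 in wild type, had input not well above background on either array. The sign turned to -0.22 with bright probes only and to -0.66 with normexp background correction, and over all 42 probes the mean difference was -0.02 (SD 0.58). Nkx2-9 lies 69069 bp from Nkx2-1 and read 1.77 (SD 0.02) in Phc2 L307R and 1.72 (SD 0.21) in wild type, a difference of 0.05 (SD 0.20). Its 43 probes averaged 0.99 ± 0.54 in Phc2 L307R and 1.20 ± 0.51 in wild type, and 0 reached 3 in either genotype. Among its 32 bright probes, 30 were lower in Phc2 L307R, with a mean difference of -0.36 (SD 0.34).

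Counted together, 1 of the 7 Nkx2 promoters passed the size rule as lower in Phc2 L307R and 0 passed as higher. Among the 8998 promoters at or above 1 in either genotype, 3.02% were lower and 1.64% higher by the same rule. Among the 341 at or above 3 in either genotype, which hold 5 Nkx2 genes, 17.3% were lower and 3.81% higher, so 1 of 5 lies near the background of promoters this high. The median window difference of the 7 genes was -0.09, against -0.14 for promoters at or above 1 and -0.30 for those at or above 3. Of 286 Nkx2 probes used, 223 (78.0%) were lower in Phc2 L307R, with a median difference of -0.33. Of all 462572 gene-named probes used, 55.2% were lower, with a median of -0.06. Of the 4861 at or above 3 in either genotype, 64.7% were lower, with a median of -0.40; the Nkx2 probes were not chosen by level, and many lie below 3. The 121 promoters with at least 30 probes and a mean of at least 2 had a median share lower of 75.6%. The 78.0% is not a like measure, since it pools all 7 genes and Nkx2-1, Nkx2-2 and Nkx2-9 have means below 2. The members that meet both conditions had 31 of 45 probes lower at Nkx2-3, 44 of 45 at Nkx2-5, 33 of 40 at Nkx2-4 and 31 of 32 at Nkx2-6. Of these shares, that of Nkx2-3 lay below 75.6% and the others above it. Neighbouring probes share fragments and an array, so probes are not replicates.

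**Figure D3:**
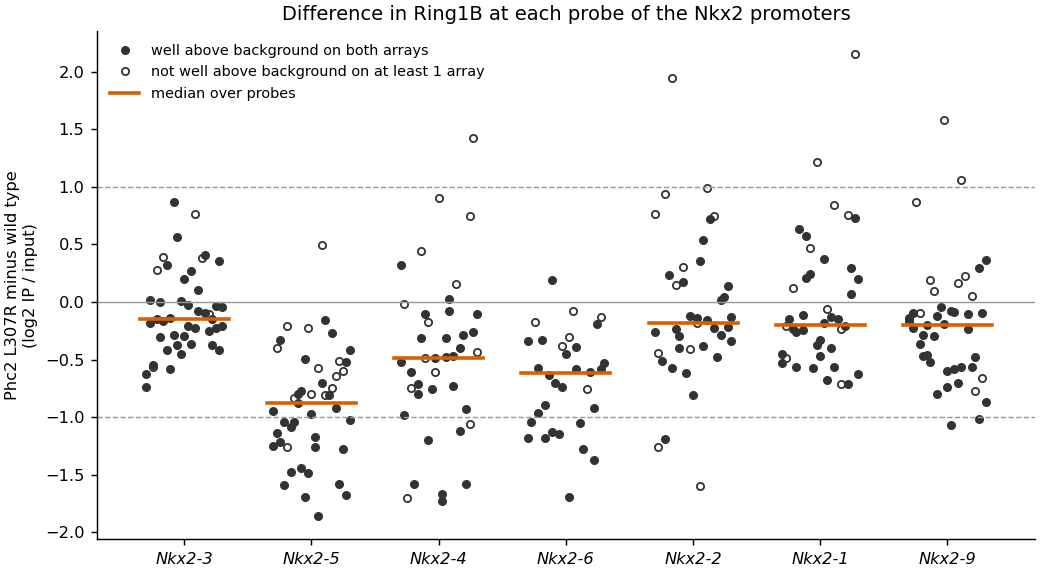
Difference in Ring1B (Phc2 L307R minus wild type, log2) at each used probe of the 7 Nkx2 genes, filled where both channels were well above background on both arrays and open otherwise; orange bars are medians and dashed lines mark a 2-fold difference. Nearly all Nkx2-5 probes (44 of 45) and Nkx2-6 probes (31 of 32) lie below 0, and every value above 1 is an open point.

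**Figure D4:**
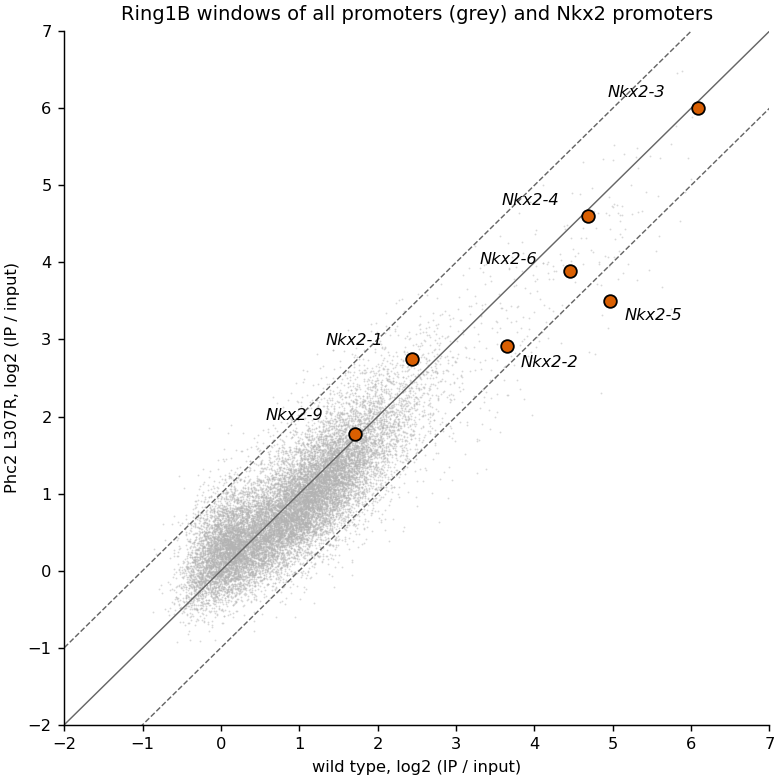
Ring1B window level in Phc2 L307R against that in wild type (both log2 immunoprecipitate over input) for 17649 promoters in grey and the 7 Nkx2 promoters in orange; the solid line marks equal levels and the dashed lines a 2-fold difference. Nkx2-3 lies near the solid line at the top end and Nkx2-5 is the only Nkx2 gene beyond a dashed line.

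The second set of wild-type values moved every Nkx2 gene downwards. In the same windows, the value tables gave 3.49 in Phc2 L307R and 5.67 in wild type at Nkx2-5, a difference of -2.18. At Nkx2-3 they gave 6.00 in Phc2 L307R and 7.04 in wild type, a difference of -1.04. At Nkx2-6 the difference was -1.86, at Nkx2-2 -1.59, at Nkx2-1 -1.38, at Nkx2-4 -1.12 and at Nkx2-9 -0.81. The 2 sets of wild-type values themselves differed in these windows by 0.71 at Nkx2-5, 0.95 at Nkx2-3, 1.05 at Nkx2-4, 1.28 at Nkx2-6, 0.87 at Nkx2-2, 1.69 at Nkx2-1 and 0.86 at Nkx2-9. In its window, Nkx2-5 was the only member whose difference between genotypes in the scanner files (-1.47) was larger than the difference between the wild-type sets. This did not hold over its whole region. Over all 45 probes, wild type averaged 4.49 in the value tables and 3.48 in the scanner files. Those 2 means lay farther apart than the genotypes in the scanner files (-0.90). By the size rule in the value tables, 6 of the 7 Nkx2 promoters were lower, as were 424 of the 575 promoters at or above 3.

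Under 10 other ways of reading a window, Nkx2-5 stayed below 0 in 10, from -1.93 to -0.46, and passed the size rule in 8. Here the value tables were read in a window chosen anew from their own values. At Nkx2-5 that window read 3.66 in Phc2 L307R and 5.54 in wild type, a difference of -1.88, against -2.18 in the scanner-file window. Nkx2-5 did not pass with the window highest in Phc2 L307R (-0.46), nor as the mean over all probes (-0.90). By that mean, 0 of the 52 promoters at or above 3 in either genotype passed. Nkx2-3 lay between -1.04 and 0.17 and passed in 1, the value tables. Nkx2-6 lay between -1.86 and -0.38, below 0 in 10, and passed in 3. Nkx2-4 passed in 2, Nkx2-2 in 1 and Nkx2-9 in 0. Nkx2-1 lay between -1.38 and 0.77, below 0 in 4, and passed in 1.

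**Figure D5:**
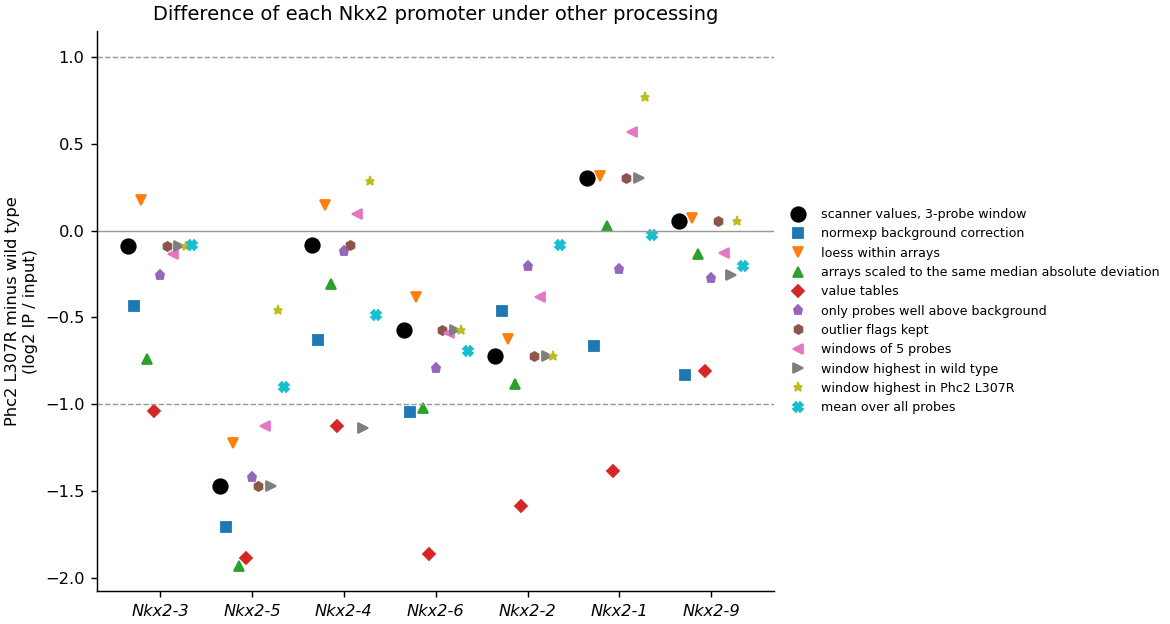
Difference of each Nkx2 gene (Phc2 L307R minus wild type, log2) in its window from the scanner files (black) and under 10 other ways of processing or of choosing the probes (coloured); dashed lines mark a 2-fold difference. Nkx2-5 is below 0 throughout (-1.93 to -0.46), and the value tables (red) give the lowest or nearly the lowest value at each gene.

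Promoters next to the Nkx2 genes did not pass the size rule. Beside Nkx2-5, the vesicle transport gene Bnip1 read 1.06 in Phc2 L307R and 1.43 in wild type, and the kinesin gene Kifc1 read 0.33 and 0.34. Beside Nkx2-3, the aminotransferase gene Got1 read 1.30 in Phc2 L307R and 1.71 in wild type, and the mitochondrial carrier gene Slc25a28 read 2.16 and 2.50. Some neighbours are developmental factors themselves. Pax9, beside Nkx2-9, read 3.66 in Phc2 L307R and 3.14 in wild type, a difference of 0.52 (SD 0.69), and Pax1, beside Nkx2-2, read 2.89 and 3.38.

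Likeness was measured as the distance between window levels in both genotypes, over promoters of the same array design and 1 array per genotype. Nearest to Nkx2-3 were the homeobox gene Cart1 at a distance of 0.14 (5.89 in Phc2 L307R, 6.01 in wild type), the zinc finger gene Sall3 at 0.58 (5.53 and 5.75) and the forkhead gene Foxl2 at 0.66 (5.35 and 5.96). Nearest to Nkx2-5 were the retinal homeobox gene Chx10 at 0.21 (3.31 in Phc2 L307R, 4.86 in wild type), the islet factor Mafa at 0.34 (3.15 and 4.93) and the nuclear receptor gene Nr2e1 at 0.51 (3.98 and 4.82).

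Genes were read by the same rule from 7 lists. These hold genes of the tissues where Nkx2 factors act, other Nkx genes and fibroblast genes. Of promoters at or above 1 in either genotype, the rule called 3.02% lower and 1.64% higher (median difference -0.14). Of those at or above 3 it called 17.3% lower and 3.81% higher (median -0.30). Only genes at or above 1 in either genotype can be called. These were 10 of 14 cardiac, 7 of 15 thyroid and lung, 9 of 14 islet and 8 of 9 spleen and gut genes. In the other lists all genes with probes could be called. Of 14 cardiac partners and targets, 1 was lower in Phc2 L307R, 0 were higher and the median difference was -0.01. It was Tbx2, a T-box repressor, at 2.67 in Phc2 L307R and 3.74 in wild type. Gata4, a cardiac partner of Nkx2-5, read 5.08 in Phc2 L307R and 6.00 in wild type (-0.92) and did not pass, and Srf (0.37) and Tbx5 (0.35) lay highest among the genes at or above 1 in either genotype. Of 15 thyroid and lung genes, 0 were lower and 0 higher, with a median of 0.11. Among those at or above 1 in either genotype, Lhx6 (-0.89) and Foxe1 (-0.49) lay lowest, and Slc5a5 (0.39), the iodide transporter, and Pax8 (0.11) highest.

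Of 12 ventral neural tube genes with probes, 2 were lower in Phc2 L307R, 0 were higher and the median was -0.30. Nkx6-2, another NK homeobox gene, read 2.81 in Phc2 L307R and 4.77 in wild type (-1.97), and Irx3 differed by -1.08. The Hedgehog target Gli1 (0.90) and the oligodendrocyte factor Olig1 (0.52) lay highest. Of 14 islet genes, 1 was lower, Mafa at -1.78, 0 were higher and the median was -0.30. Pax4, which acts in beta cell development, differed by -0.96, and Isl1 (0.32) lay highest among those at or above 1.

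Of 9 spleen and gut mesenchyme genes, 2 were lower in Phc2 L307R, 0 were higher and the median was -0.53. The stomach factor Barx1 read 3.90 in Phc2 L307R and 5.46 in wild type, and Wt1, needed for the spleen, differed by -1.27. Among those at or above 1 in either genotype, Bmp4 (0.27) and Nkx3-2 (-0.10) lay highest. Of 5 other Nkx genes with probes, 1 was lower, Nkx6-2, and the median was -0.10, with Nkx1-2 at -0.07 and Nkx6-1 at 0.09. Of 13 genes that fibroblasts are known to use, 0 were lower, 0 were higher and 3 differed by less than 0, with a median difference of 0.27. Their use in these cells was not measured. In each genotype 12 of the 13 stood at or above 1, with median levels of 2.56 in Phc2 L307R and 2.26 in wild type. The cut-off of 1 therefore did not set the Nkx2 genes apart from them. Postn (0.91) and Col1a2 (0.90) lay highest, and Thy1 (-0.37) and Vim (-0.28) lowest. The lists share members, such as Isl1, Pax6 and Nkx6-2, so their counts are not independent.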

How the data were processed

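Spot intensity was deposited by the authors for 4 arrays. Per the file headers, Agilent Feature Extraction 10.7.3.1 subtracted background, detrended each array and normalised the dyes linearly, and wrote a log10 ratio of immunoprecipitate (Cy5) to input (Cy3) for every spot. A comparison with these ratios showed that the authors' value tables are log10 ratios too; their centring is not stated. No genome build of the probes was found in the labels or headers.

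Control spots and outlier-flagged spots were removed and saturated ones kept, and ratios were turned into log2 and centred on each array's median. Signed differences are Phc2 L307R minus wild type. Each promoter was read in 1 window, the 3 adjacent probes (spanning at most 2000 bp) whose mean over Phc2 L307R and wild type was highest. A promoter was called lower or higher if its window was at least 1 (log2) in either genotype and differed by at least 1 with all 3 probes on the same side; for means over all probes, the last condition was dropped. The numbers in the titles are array designs, so no p-value was computed and no pairing exists.

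Named genes are every member, the 3 most alike promoters of Nkx2-3 and Nkx2-5, the neighbouring promoters, and up to 2 lowest and 2 highest bound members of each list. The members and lists were chosen with earlier results of these data known. Dbx2, Sox10, Nkx1-1, Nkx6-3 and Dcn were not analysed here. Some named genes enter the counts and medians but are not reported here singly. The steps were tested on simulated data.

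Alternatives were normexp background correction (offset 50), loess within arrays, scaling to the same median absolute deviation, the value tables, bright probes only, outlier flags kept, windows of 5 probes or chosen in 1 genotype, the mean over all probes, a size rule of 1.5-fold, cut-offs of 1.5 and 3, and single array designs. Calculations used Python 3.11.15, numpy 2.4.6, pandas 2.3.3, R 4.3.3 and limma 3.58.1, and figures matplotlib 3.10.9.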

Additional observations from a re-analysis of the deposited data

How the results depend on the processing

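Each promoter had 1 array per genotype, so no alternative measures the spread between cultures. The count of Nkx2 promoters lower in Phc2 L307R, 1 in the scanner files, was 2 with normexp, 2 with arrays scaled to the same median absolute deviation, 2 at the wild-type peak (the window highest in wild type), 2 with a size rule of 1.5-fold, 6 in the value tables, 0 at the Phc2 L307R peak and 0 as the mean over all probes. The count of higher promoters was 0 under every alternative run. The median difference over the 7 genes, -0.09 in the scanner files, was -0.66 with normexp, -0.74 with scaled arrays, -1.38 in the value tables, -0.57 at the wild-type peak and 0.07 with loess. Over single array designs, the lower count ran between 0 and 1, the median between -0.40 and -0.09, and the number bound in each genotype between 2 and 5. At a cut-off of 3, 4 were bound in Phc2 L307R and 5 in wild type. Settings also moved promoters in general. The median over promoters at or above 1 was -0.14 in the scanner files, -0.34 with normexp, -0.27 with scaled arrays and -0.19 in the value tables. Over promoters at or above 3 it was -0.30 in the scanner files, -0.91 with normexp, -0.67 with scaled arrays and -1.51 in the value tables. With a size rule of 1.5-fold, 13.5% of promoters at or above 1 and 33.4% of those at or above 3 were lower. As the mean over all probes, 12 of 938 promoters at or above 1 and 0 of 52 at or above 3 were lower. Lower and higher calls over all promoters were 272 and 148 in the scanner files, 198 and 11 with normexp, 424 and 100 with scaled arrays, 733 and 52 in the value tables, 147 and 32 with bright probes only (well above background in both channels on both arrays), 90 and 295 at the Phc2 L307R peak, and 468 and 32 at the wild-type peak. The last pair differs by construction, since each picks the probes on the array it is named for; for the rest the cause was not tested. No paired analysis was possible because the numbers in the titles are array designs that share 0 probes.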

Other observations

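The shape of each Nkx2 profile was set beside that of the same gene in the other genotype and in the second set of wild-type values, as Pearson's r over the probes of 1 gene, which share arrays and probe sequences. At Nkx2-5, over 45 probes, r was 0.88 between Phc2 L307R and wild type and 0.96 between the 2 sets of wild-type values. At Nkx2-3 the values were 0.95 and 0.93, at Nkx2-4 0.84 and 0.91, at Nkx2-6 0.90 and 0.97, at Nkx2-2 0.81 and 0.92, at Nkx2-1 0.81 and 0.96, and at Nkx2-9 0.51 and 0.73. The profile at Nkx2-3 was thus the only one of the 7 in which the genotypes were as alike as the sets of wild-type values.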
